A study of Homo sapiens with 6 samples.

Results

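The hedgehog pathway was followed through 9 genes: the ligands SHH, IHH and DHH, the receptor PTCH1 and the signal transducer SMO, the ligand-binding protein HHIP, and the transcription factors GLI1, GLI2 and GLI3. Members were taken by gene symbol, as every probe set whose platform annotation names one of them and no other gene. The 1801 probe sets of the platform that name several genes were left out beforehand. The members then had 22 probe sets, for 9 of the 19775 genes measured. RNA came from NTERA2/D1, a cell line established from a human testicular teratocarcinoma, transfected 24 h after plating with a nonspecific scrambled siRNA (control, 3 arrays) or with siRNA against human VAMP7 (knockdown, 3 arrays) and collected after 72 h of transfection. Both groups shared the cell line, the phenol red-free medium with serum and the transfection. The sources used here give no age, allele or further agent. A single cell line is not genital tissue. The sample titles call the samples biological replicates, but the labels do not say whether these were separate cultures. Replicate numbers here are those of the sample titles, 1 to 3 per group, whereas the description field gives replicate 1 for each of the 3 knockdown samples. Thus each p-value reflects only how these 6 samples scattered, which could be technical scatter.

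Hedgehog ligands are secreted proteins that bind PTCH1 and so release SMO from inhibition. Active SMO works at the primary cilium, where it shifts GLI2 and GLI3 from repressor to activator forms, and GLI1 is then made as a further activator. PTCH1, GLI1 and HHIP are themselves induced by the pathway, PTCH1 and HHIP as negative feedback. In the embryo, SHH from the urethral epithelium drives outgrowth of the genital tubercle.

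Sequence before the start is shown for the 2 members with a match, PTCH1 for the GLI consensus and GLI2 for its shorter core. The windows shown were thus picked by their match. RefSeq start windows of 300 bases on GRCh38.p14, 250 before and 50 after the start, were available for 7 of the 9 members and not for GLI1 and GLI3. They were searched on both strands for the GLI consensus TGGGTGGTC and for its core TGGGTGG, which lies inside the consensus. The consensus was in 1 of the 12 member windows, 1 of the 5 of PTCH1, and in 83 of all 35116 windows (0.236%). The core was in that window and in 1 of the 2 GLI2 windows, and in 9.19% of all windows. Capitals mark the matched letters in the bases before each start, which are the 250 bases at chr9:95509267-95509516 on the minus strand for PTCH1 and 107 bases at chr2:120735654-120735760 on the plus strand for GLI2:
PTCH1: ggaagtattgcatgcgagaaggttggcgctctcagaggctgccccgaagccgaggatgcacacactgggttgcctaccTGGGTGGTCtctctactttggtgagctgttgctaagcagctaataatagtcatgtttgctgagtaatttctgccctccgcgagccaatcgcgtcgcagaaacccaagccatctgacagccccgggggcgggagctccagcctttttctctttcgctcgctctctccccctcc
GLI2: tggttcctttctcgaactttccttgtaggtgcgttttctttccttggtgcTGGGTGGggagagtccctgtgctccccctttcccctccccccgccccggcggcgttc
The PTCH1 match began 172 bases before the start and the GLI2 match 164 bases before it. A match describes letters and is not evidence of binding.

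Intensities are on a linear scale, and fold changes are knockdown minus control on log2(intensity + 50). Adding 50 damps noise at the dim end and understates the change of dim genes. One probe set, that of highest mean, stands for a gene, and calls were made in limma at an adjusted p under 0.05. VAMP7 itself read 2487, 2617 and 2741 in control and 136.8, 175.4 and 148.6 in knockdown and was the gene called, 1 of 19775 (0.00506%), with 0 genes called higher. Before adjustment 1317 genes were under 0.05, 718 higher and 599 lower. Median intensity per array ran from 58.9 to 67.5. Knockdown replicate 1 stood apart: 26.7% of genes read highest on it and 20.4% lowest, where equal shares would be 16.7%. Embryonal carcinoma markers were bright (LIN28A 32840, SOX2 17210 and NANOG 4839 in the control mean), except ZFP42 at 79.9, and POU5F1 and TDGF1 were not used here. Of the 11 measured, 7 had a log2 fold change above 0 and 4 below. Their sums overlapped, at 88160 to 109200 in control and 95750 to 111700 in knockdown. NANOG read 3968 in the knockdown mean (log2 fold change -0.28, unadjusted p = 0.0443 and adjusted p = 0.742 in limma, no overlap). Summed over the markers measured, control and knockdown arrays overlapped for neural (6 genes, 6445 to 6746 and 5291 to 6809), fibroblast (8 genes, 4172 to 4477 and 4105 to 5018) and leukocyte markers (6 genes, 112.8 to 271.9 and 114.4 to 326.3). The neural and fibroblast sums rest mostly on bright genes, MAP2 (control mean 4847) and COL1A1 (2568). Their overlap says little about the dimmer markers. The 6 endothelial markers summed to 3511 to 3767 in control and 3973 to 4477 in knockdown. VWF went from 1176 to 1596 in the group means (log2 fold change 0.42, unadjusted p = 0.0126 and adjusted p = 0.648 in limma, no overlap), PECAM1 from 85.8 to 121.2 and KDR from 913.7 to 1041, while TEK went from 1425 to 1362, CDH5 from 42.7 to 38.5 and TIE1 from 25.6 to 21.6. The part of these markers in the results below was not tested. None was listed at 0. In bulk samples, fewer cells of a type and less RNA per cell cannot be told apart.

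No hedgehog member passed the test. Limma called 0 of 9 members at an adjusted p under 0.05, where 0.00506% of all genes were called, and 0 of the 22 probe sets, where 0.00243% were. At an unadjusted p under 0.05, 2 of 9 members stood out, SHH lower and GLI2 higher, beside 6.66% of all genes. The groups did not overlap for 3 of 9 members, SHH and HHIP lower and GLI2 higher, beside 13% of all genes (6.29% lower and 6.68% higher). Of the 9, 6 lay below 0 and 3 above, beside 49.2% and 50.8% of all genes, with a median log2 fold change of -0.06 against 0.003 over all genes.

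**Figure D1:**
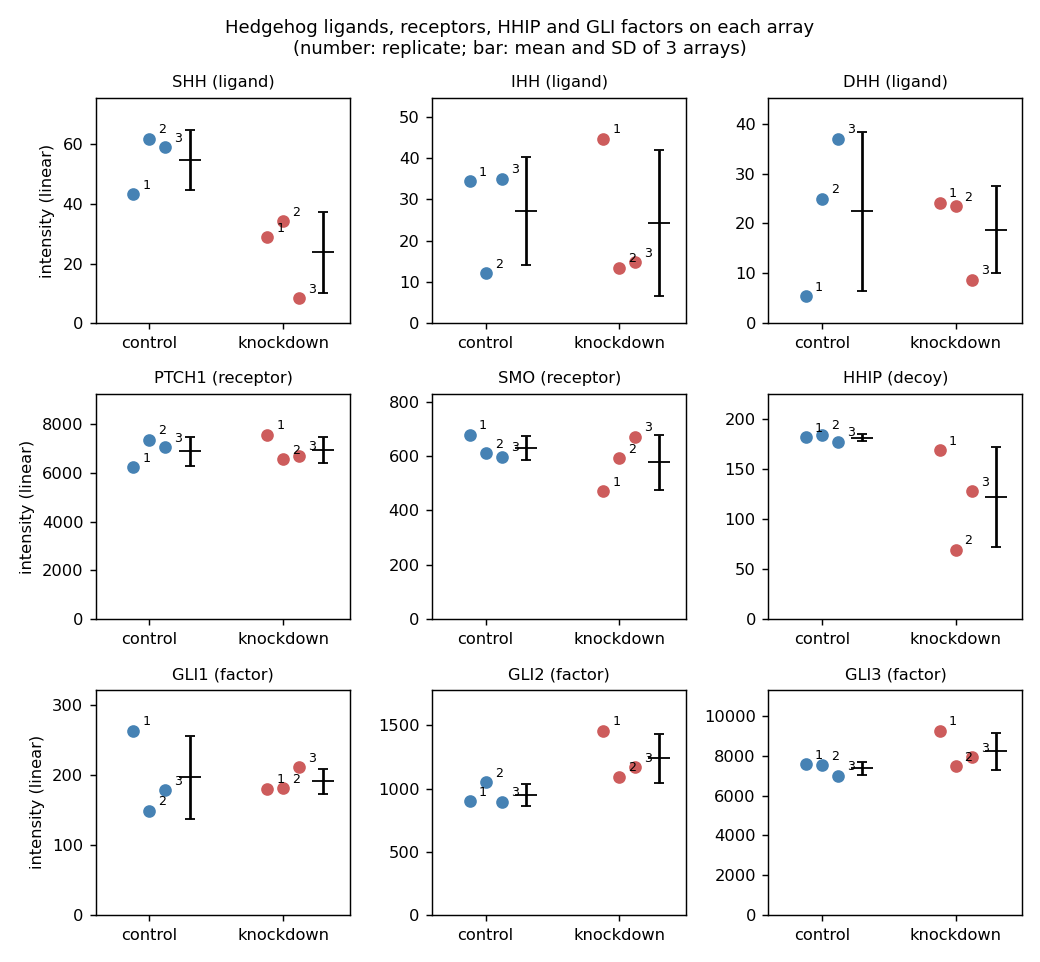
Linear intensity of each hedgehog member (vertical axis, from 0) on each control and knockdown array, 1 point per array numbered by replicate, with the mean and SD of 3 arrays beside it. SHH, HHIP and GLI2 are the members whose groups do not overlap; PTCH1 and GLI3 are the brightest, and the 3 ligands read 61.9 or less.

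The ligands were dim. SHH, the ligand of the neural tube, limb and genital tubercle, read 43.3, 61.9 and 59.0 in control and 28.8, 34.2 and 8.44 in knockdown. All 3 knockdown arrays lay below all 3 control arrays, the nearest 2 being 43.3 and 34.2. The mean went from 54.7 ± 10.0 to 23.8 ± 13.6 (SD, n = 3), a log2 fold change of -0.52 (95% interval -0.90 to -0.14, SE 0.16, unadjusted p = 0.0145 and adjusted p = 0.661 in limma). A second SHH probe set did not repeat the separation. It read 66.3, 6.62 and 34.3 in control and 38.3, 7.94 and 36.9 in knockdown, with a log2 fold change of -0.11 (SE 0.29). On the first probe set the value without any 1 array stayed between -0.62 and -0.36, and with the mean of both probe sets it was -0.31.

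IHH, the ligand of cartilage and gut, read 34.4, 12.1 and 35.0 in control and 44.7, 13.4 and 14.8 in knockdown. Both groups held a high and a low array, and the difference was -0.07 on the log2 scale (95% interval -0.54 to 0.41, adjusted p = 0.965 in limma). Its second probe set ranged from 6.54 to 36.1 in control and from 9.22 to 46.7 in knockdown. DHH, the ligand of Sertoli and Schwann cells, had 1 probe set, at 5.41, 25.0 and 37.0 in control and 24.2, 23.4 and 8.72 in knockdown. The control arrays spanned the knockdown arrays, with a log2 fold change of -0.06 (95% interval -0.50 to 0.38, adjusted p = 0.967 in limma). Mean intensity over the 6 arrays was 39.2 for SHH, 25.7 for IHH and 20.6 for DHH, at the 29.0, 22.3 and 18.3 percentile of genes. The leukocyte markers, genes of blood cells, spanned 7.16 to 57.1 on the same arrays. Probe sets differ in sensitivity and no detection calls were used, so no order among the ligands is read from these levels.

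PTCH1, the ligand receptor that holds SMO inactive, was bright and did not separate the groups. It read 6230, 7351 and 7045 in control and 7563, 6559 and 6691 in knockdown, 6875 ± 579 and 6938 ± 546 (SD, n = 3). The highest knockdown array was replicate 1, and the other two lay within the control range. The difference was 0.01 on the log2 scale (95% interval -0.25 to 0.27, SE 0.11, adjusted p = 0.988 in limma), and it turned to -0.05 without knockdown replicate 1. PTCH1 had 5 probe sets, the most of any member. A second read 336.2, 323.2 and 334.6 in control and 367.4, 354.3 and 383.0 in knockdown, a small separation with a log2 fold change of 0.13 (SE 0.09, adjusted p = 0.845 in limma over all probe sets). Another, at 72.7 ± 17.9 and 75.7 ± 11.9 (SD, n = 3), was at 0.04. The other two were dim. One of them read 4.58 to 6.92 in control and 37.5, 5.42 and 57.9 in knockdown, so that 2 of 3 knockdown arrays were high, with a log2 fold change of 0.52 (SE 0.23, adjusted p = 0.769 in limma over all probe sets). The last read 3.33 to 9.34 over all 6 arrays, at 0.03. All 5 PTCH1 probe sets were above 0, and none passed. Their mean gave 0.15.

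SMO, the membrane protein that passes the signal on, read 678.6, 610.4 and 597.4 in control and 469.6, 591.3 and 671.3 in knockdown on its 1 probe set. The groups overlapped, with the lowest value on knockdown replicate 1. The difference was -0.12 on the log2 scale (95% interval -0.45 to 0.20, SE 0.14, adjusted p = 0.888 in limma), and 0.005 without that array.

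HHIP, which binds all 3 ligands at the cell surface and limits their range, read 181.7, 184.5 and 177.5 in control and 169.2, 69.4 and 127.7 in knockdown. The control arrays lay close together, and the knockdown arrays were all lower and widely spread. The difference was -0.47 on the log2 scale (95% interval -0.97 to 0.03, SE 0.21, unadjusted p = 0.0617 and adjusted p = 0.754 in limma). Its size rested on knockdown replicate 2: without that array it was -0.23. A second HHIP probe set read 62.6, 53.9 and 76.2 in control and 22.7, 48.4 and 55.0 in knockdown, where the groups overlapped by 1 array, at -0.32 (SE 0.16). Here knockdown replicate 1 was lowest, the array that was highest of the 3 on the first probe set, and without it the second was at -0.16. The 2 dim HHIP probe sets, at mean intensities of 26.1 and 6.40, gave 0.09 and -0.01, and the mean of all 4 gave -0.18.

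**Figure D2:**
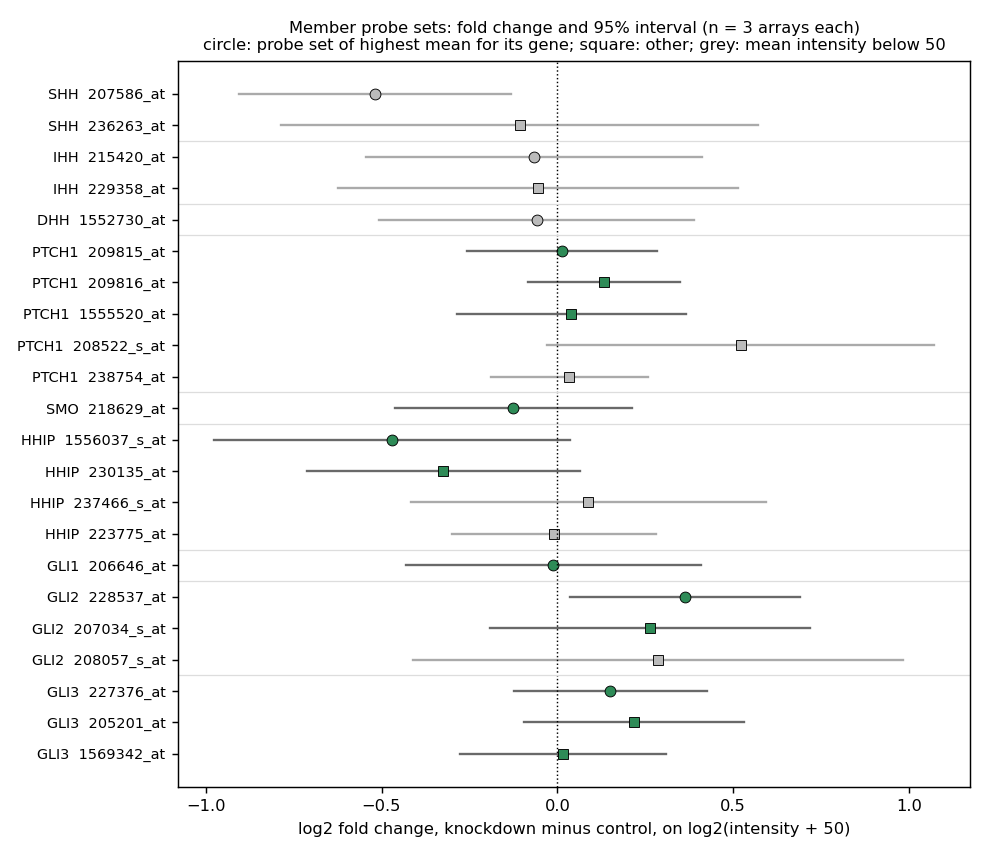
Log2 fold change (horizontal axis, knockdown minus control) with its 95% interval from limma for each of the 22 member probe sets, labelled by gene and probe set. The intervals of SHH 207586_at and GLI2 228537_at leave out 0 before adjustment; every other interval holds 0, and no probe set passes after adjustment.

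GLI1, both an activator and a target of the pathway, read 263.1, 148.8 and 177.8 in control and 180.1, 180.4 and 210.9 in knockdown on 1 probe set. All 3 knockdown arrays lay inside the control range. The difference was -0.01 on the log2 scale (95% interval -0.42 to 0.40, SE 0.18, adjusted p = 0.995 in limma). It was 0.17 without control replicate 1, the highest array. The mean log2 value of the induced genes PTCH1, GLI1 and HHIP was 9.59, 9.45 and 9.49 in control and 9.51, 9.15 and 9.41 in knockdown. The groups overlapped, and knockdown replicate 2, the array where HHIP was lowest, gave the lowest mean.

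GLI2, the main activator of the pathway, read 898.5, 1049 and 897.0 in control and 1459, 1092 and 1167 in knockdown. All 3 knockdown arrays lay above all 3 control arrays, with a gap from 1049 to 1092 and knockdown replicate 1 well above the rest. The mean went from 948.3 ± 87.5 to 1239 ± 194 (SD, n = 3), 1.31 times the control signal, and the difference was 0.36 on the log2 scale (95% interval 0.04 to 0.68, SE 0.14, unadjusted p = 0.0317 and adjusted p = 0.728 in limma). Without knockdown replicate 1 it was 0.24 (unadjusted p = 0.0743 and adjusted p = 0.78 in limma). A second GLI2 probe set read 728.0, 577.7 and 410.6 in control and 651.8, 654.2 and 737.8 in knockdown, at 0.26 (SE 0.19), with control replicate 1 above the lower 2 knockdown arrays. The last GLI2 probe set was dim and read 11.6, 27.5 and 19.6 in control and 52.0, 1.6 and 64.5 in knockdown, at 0.29 (SE 0.30). All 3 GLI2 probe sets were above 0, and none passed. The second was at 0.06 without control replicate 3 and 0.44 without control replicate 1, and the dim one at 0.07 without knockdown replicate 3, 0.15 without knockdown replicate 1 and 0.64 without knockdown replicate 2.

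GLI3, which acts mainly as a repressor when no ligand is present, was bright. It read 7588, 7531 and 7009 in control and 9271, 7474 and 7930 in knockdown. Knockdown replicate 1 was highest, and knockdown replicate 2 lay below 2 control arrays. The difference was 0.15 on the log2 scale (95% interval -0.11 to 0.42, SE 0.11, adjusted p = 0.844 in limma), and 0.06 without knockdown replicate 1. A second probe set read 4260, 4408 and 4530 in control and 6133, 4665 and 4711 in knockdown, where the groups did not overlap. It was at 0.22 (SE 0.13, adjusted p = 0.821 in limma over all probe sets), and 0.09 without that array. The third, at 153.3 ± 19.3 and 155.6 ± 20.4 (SD, n = 3), was at 0.02.

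Over the 22 probe sets, 12 lay above 0 and 10 below (52.8% of all probe sets lay above), and the groups did not overlap for 5, 3 higher and 2 lower (22.7%, beside 12.5% of all probe sets, 7.03% higher and 5.47% lower). Of the 22, 10 had a mean intensity below the offset of 50. Knockdown replicate 1 was the highest array for 4 of the 9 members, IHH, PTCH1, GLI2 and GLI3, beside 26.7% of all genes, and its part in these values is given by the fold changes without it.

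**Figure D3:**
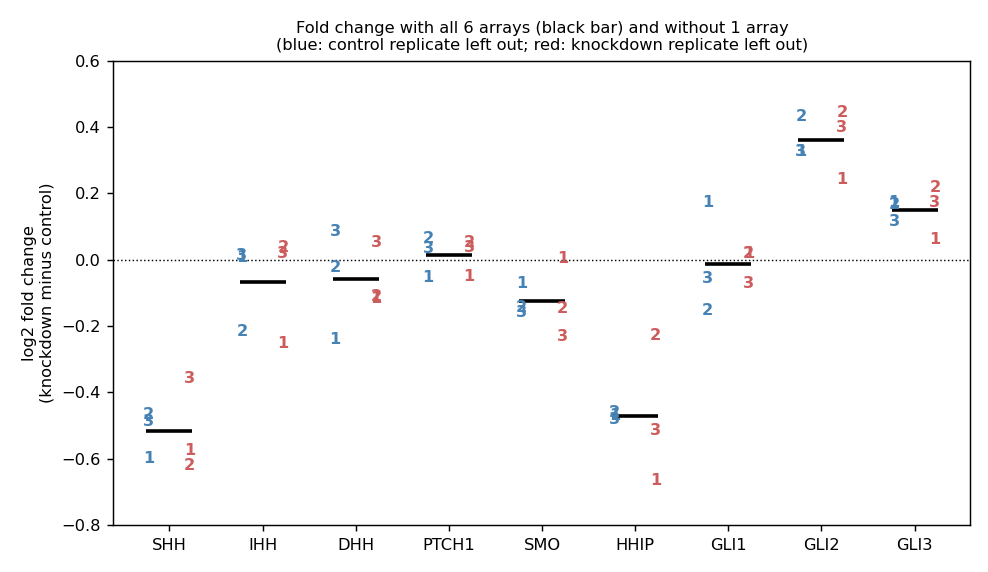
Log2 fold change of each member (vertical axis, knockdown minus control) with all 6 arrays, drawn as a black bar, and with 1 array left out, drawn as that array's replicate number in blue for control and red for knockdown. SHH, HHIP, GLI2 and GLI3 keep their side of 0 whichever array is left out; the other 5 members cross it.

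Other pathway genes were counted in 6 lists. Of 177 listed genes 162 were measured, and limma called 0 of them, where 0.00506% of all genes were called. Before adjustment 7 were higher and 1 lower at p under 0.05, beside 3.63% and 3.03% of all genes. Ligand maturation and release had 5 of its 10 measured genes above 0, beside 50.8% of all genes. HHAT, which attaches palmitate to the ligands, read 240.2, 286.8 and 271.1 in control and 220.1, 189.9 and 234.0 in knockdown, all lower (log2 fold change -0.26, adjusted p = 0.745 in limma). SCUBE1, a secreted protein of the family that helps release the ligands, was at 0.17 on the probe set used and at -0.49 on a second, dim one (mean intensity 21.4).

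The co-receptors, which help PTCH1 bind ligand, had 4 of 4 measured genes above 0, with a median of 0.21 beside 0.003 over all genes, and the groups did not overlap for 3 of them, beside 13% of all genes. GAS1, the gene the naming rule took, read 4481, 4850 and 5011 in control and 5730, 5497 and 5283 in knockdown, at 0.20 (SE 0.09, unadjusted p = 0.0691 and adjusted p = 0.759 in limma). The other three are given to complete the list. BOC read 2295, 2264 and 2072 in control and 3047, 2453 and 2355 in knockdown, at 0.23 (SE 0.12). LRP2 read 668.2, 679.0 and 670.0 in control and 831.0, 679.3 and 855.2 in knockdown, at 0.21 (SE 0.11), so its nearest arrays were at 679.0 and 679.3. CDON read 1192, 881.6 and 833.5 in control and 1169, 991.2 and 1172 in knockdown, at 0.20 (SE 0.15), and overlapped. None of the 4 was under 0.05 before adjustment. Without knockdown replicate 1, the highest array for BOC and GAS1, all 4 were again above 0, with a median of 0.17. With each gene's probe sets averaged, 3 of 4 were above 0 and the median was 0.12. A dim CDON probe set (mean intensity 24.5) gave -0.31 and a dim BOC one (52.0) gave -0.28. Brighter ones of BOC (256.2) and LRP2 (286.8) gave 0.32 and 0.11. Other dim ones gave 0.24 and 0.19 for GAS1 and 0.08 for CDON.

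**Figure D4:**
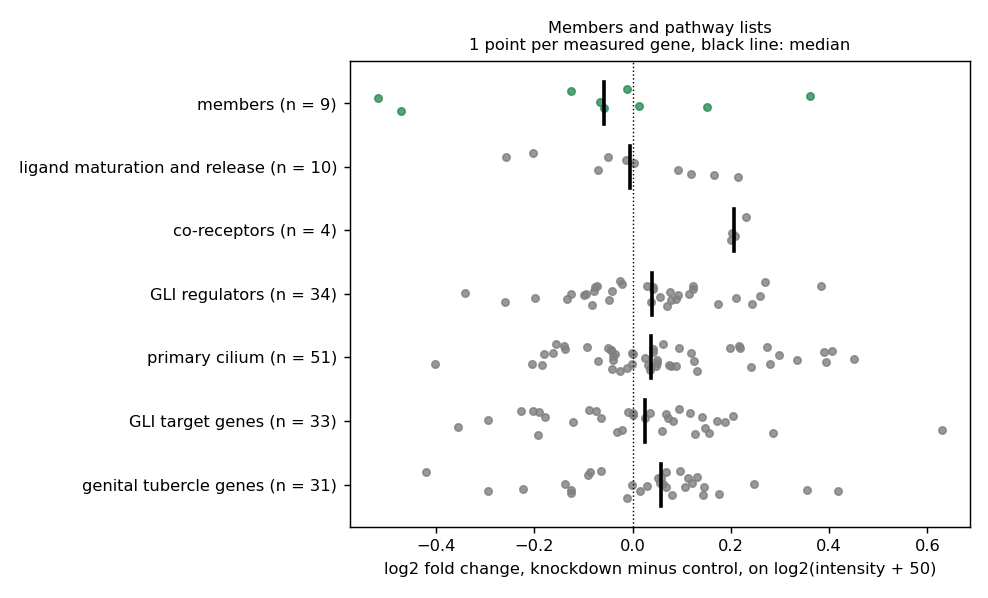
Log2 fold change (horizontal axis, knockdown minus control) of each measured gene, 1 point per gene, for the 9 members and the 6 pathway lists, with the median of each as a black line. The 4 co-receptor genes lie between 0.20 and 0.23, and the other lists spread on both sides of 0.

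GLI regulators had 19 of 34 measured genes above 0 and 15 below (55.9% above, beside 50.8% of all genes). At an unadjusted p under 0.05, 2 were higher and 0 lower (background 3.63% higher and 3.03% lower). STK36, a kinase related to the fly regulator Fused, read 726.5, 832.5 and 752.3 in control and 970.0, 934.2 and 888.7 in knockdown, at 0.26 (adjusted p = 0.728 in limma). Its other probe sets gave 0.29 and -0.09. SMURF2, a ubiquitin ligase that can act on PTCH1, was at -0.34, or -0.18 without knockdown replicate 1, and its other probe sets gave -0.14, -0.45 and 0.04.

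The primary cilium list, the organelle where SMO acts, had 30 of 51 measured genes above 0 (58.8%, beside 50.8% of all genes). At an unadjusted p under 0.05, 5 of the 51 were higher and 0 lower, beside 3.63% and 3.03% of all genes. CEP164, a distal appendage protein of the mother centriole, read 861.1, 731.0 and 828.4 in control and 1193, 963.0 and 1102 in knockdown. Its groups did not overlap, and the log2 fold change was 0.40 (SE 0.12, adjusted p = 0.638 in limma). A second CEP164 probe set gave 0.27 and another, dim one -0.27 (SE 0.41). MKKS, a chaperonin-like Bardet-Biedl protein, was at -0.20, with a second probe set at -0.05.

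GLI target genes had 18 of 33 measured genes above 0 (54.5%, beside 50.8% of all genes). At an unadjusted p under 0.05, 0 were higher and 0 lower, beside 3.63% and 3.03% of all genes. PRDM1, a transcriptional repressor, read 58.2, 84.9 and 5.02 in control and 105.1, 75.6 and 102.6 in knockdown, at 0.63 (SE 0.32), or 0.25 without control replicate 3, the array that read 5.02. Its other probe sets gave -0.09 and 0.11, and the mean of all 3 gave 0.22. SPP1, the secreted protein osteopontin, read 1174, 1178 and 1123 in control and 1010, 1045 and 947.4 in knockdown, at -0.20 (SE 0.09, adjusted p = 0.753 in limma). A second, dim SPP1 probe set (mean intensity 12.3) gave 0.05, and the mean of both gave -0.08. Genital tubercle genes had 20 of 31 above 0 (64.5%, beside 50.8% of all genes), with a median of 0.06 beside 0.003 over all genes. At an unadjusted p under 0.05, 0 of these were higher and 1 lower, beside 3.63% and 3.03% of all genes. ALX4, a homeobox gene of limb and genital mesenchyme, was dim at 33.6 ± 12.2 and 12.3 ± 7.0 (SD, n = 3). It stood at -0.42, and its groups did not overlap (unadjusted p = 0.0201 and adjusted p = 0.698 in limma). TBX5, a T-box factor, was at 0.42 on a dim probe set, and its others gave 0.46, 0.18 and -0.19.

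The genes whose pattern over the 6 arrays was most like that of 2 members were ranked by Pearson's r of log2 values, among the brighter genes (those not below the median). For GLI3, the brightest member, they were COX19 (r = 0.995), YWHAH (0.995) and LARP6 (0.99), and 222 of 9887 genes had an r above 0.9. For SHH, the member of smallest p, they were AADAT (0.988), SLC35F2 (0.98) and ICE2 (0.971), and 47 of 9888 had an r above 0.9. These are descriptions over 6 arrays that share the 2 groups and the array that stands apart, and nothing is read from them.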

How the data were processed

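The authors deposited 1 linear intensity per probe set (54675) and array, scaled so that each array's mean was 500.07 after trimming 2% at each end. RMA, named with no version in the submitters' processing notes, gives log2 values, so the software behind these values is not given in the sources used here. Gene names came from the platform annotation, with symbols updated through gene identifiers (41037 of 41091 one-gene probe sets matched the GRCh38.p14 table). All 6 arrays entered 1 fit of log2(intensity + 50) in limma 3.58.1 (R 4.3.3), lmFit and eBayes, over 19775 genes, with Benjamini-Hochberg adjustment. A second fit covered the 41091 one-gene probe sets. No dim genes were removed. The members and lists were chosen with earlier results of these data known. The genes named were VAMP7, the 9 members, any called gene and the gene of smallest p on each side of 0 in each pathway list, and the 3 genes most like 2 members. The 4 co-receptors were all named after their values were seen. Cell type markers were named outside this rule. NANOG and VWF were the only markers under 0.05 before adjustment in their lists. Tested on simulated arrays of this comparison (19775 genes, 200 shifted), the code recovered 24.1% of shifts of 1.5-fold and 84.8% of those of 2-fold. These shares were not given apart for dim genes, and 5 of the 9 members lay below the median signal. They also depend on the number of genes shifted, 200 in the simulation, whereas 1 gene was called in the data. They are therefore not the recovery for the members. The number of arrays limits the precision. An exact permutation test of 3 against 3 cannot go below p = 0.1, so none was used. No 2 arrays held identical values. Alternatives covered the offset, probe set choice, dim genes, scaling, eBayes options, array weights, the replicate block and each array left out.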

Additional observations from a re-analysis of the deposited data

How the results depend on the processing

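No member and no pathway list gene was called in any of the 18 alternatives run. The number of genes called was 1, VAMP7, except 4 at an offset of 0, and 2 at an offset of 16 and with each gene's probe sets averaged. Members below 0 numbered 4 to 6 without 1 array. The members' median of -0.06 was 0.082 among the 4 members at or above the median signal and ran from -0.14 to 0.02 without 1 array. SHH, HHIP, GLI2 and GLI3 kept their direction in each alternative that gave a value, from -1.42 to -0.31, -0.67 to -0.18, 0.24 to 0.445 and 0.06 to 0.22. PTCH1 turned to -0.021 with arrays centred on the median gene and -0.014 with array weights, which put GLI1 at 0.007. Without 1 array, IHH ran from -0.253 to 0.036, DHH from -0.24 to 0.085, PTCH1 from -0.055 to 0.063, SMO from -0.23 to 0.005 and GLI1 from -0.15 to 0.17. SCUBE1 turned to -0.16 with the mean of its probe sets. Among the other member probe sets, GLI2 208057_s_at turned to -0.072 at an offset of 0, PTCH1 238754_at to -0.001 and GLI3 1569342_at to -0.019 with median centring, the latter to -0.022 with quantile normalization, and IHH 229358_at to 0.062 with array weights. Without 1 array, SHH 236263_at ran from -0.38 to 0.14, IHH 229358_at from -0.279 to 0.074, PTCH1 1555520_at from -0.035 to 0.157, HHIP 237466_s_at from -0.12 to 0.24, HHIP 223775_at from -0.101 to 0.051 and GLI3 1569342_at from -0.04 to 0.10. The cause was not tested. The median SE was 0.171 for genes below the median signal and 0.114 for the others.

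The deviations of same-numbered arrays from their group means correlated at -0.005, 0.013 and -0.014, so the numbers were not taken as pairs. With the replicate block 1 gene was called, and the members' median was -0.06, with SHH at an unadjusted p of 0.0216 and GLI2 at 0.059 in limma.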
